A study of Homo sapiens with 8 samples.

Results

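The comparison described here set trMCF clone 11 cells grown with 1 µM all-trans retinoic acid (ATRA) against the same clone without it, on 4 of the 8 arrays of the series. MCF-10F is an immortal, non-tumorigenic line of human breast epithelial cells, and trMCF clone 11 is a single colony picked from MCF-10F cells after repeated exposure to 17β-estradiol, so both groups carry that estradiol history and stand for 1 clone. The ATRA group held 2 arrays from cells kept in 1 µM ATRA for 26 days with fresh medium daily, and the untreated group held the 2 arrays titled with the clone alone. A vehicle control of DMSO was part of the treatment design, but the labels do not say whether these untreated arrays came from vehicle-treated cells. The disease tag of untreated replicate 1 reads "normal", which contradicts the title it has, and the title decided its group. Whether the paired arrays of a group are separate cultures is not stated, so p-values measure the spread between arrays, which may be technical. That spread was taken from 6 arrays, these 4 and the 2 of MCF-10F. Scatter between the MCF-10F arrays therefore also bears on which genes passed. The arrays measured 54613 non-control probe sets, of which 41091 name a single gene, and each of 19775 genes is given here by its brightest single-gene probe set. Levels are log2 of the deposited signal, differences are the mean of the 1 µM arrays minus the untreated mean with the standard error (SE), and "rose" and "fell" mean an adjusted p under 0.05 by limma's moderated test.

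Retinoic acid binds the nuclear receptors RARA, RARB and RARG, which pair with RXR receptors on DNA and switch their target genes on when the ligand is present. The enzymes of the ALDH1A family make retinoic acid from retinal, and those of the CYP26 family break it down. In epithelia, retinoids are known for holding back squamous differentiation, the program of keratins and cornified envelope proteins that stratified tissues follow.

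The 4 arrays had median signals between 47.4 and 48.9, and from 21.5% to 23.7% of their signals lay under 16, a level taken here as low. Precision throughout is limited by how few arrays there are. Of the markers of epithelial cells, 7 of 8 were measured and their summed signal was high throughout, at 15.07 and 15.10 on the log2 scale without ATRA and 14.81 and 14.73 with it. None of 10 fibroblast, 8 adipocyte, 7 immune or 8 endothelial markers rose or fell. The defining markers PTPRC of leukocytes (3.31 to 3.80), CDH5 of endothelium (3.81 to 4.19) and ADIPOQ of fat (2.87 to 3.25) were near or under a signal of 16 on all 4 arrays. The summed endothelial markers stood at 8.45 and 8.81 without ATRA and 9.60 and 9.90 with it, mostly through PECAM1 (7.05 and 8.06 against 9.22 and 9.58, adjusted p = 0.405), and the summed immune markers at 8.82 and 8.33 against 9.53 and 9.33, mostly through CD14 (7.22 and 6.76 against 9.03 and 8.77, adjusted p = 0.335). The summed fibroblast markers stood at 9.76 and 10.06 against 9.15 and 9.01. The part of these markers in the results was not tested. In bulk RNA, a change in the share of a cell type and a change in RNA per cell cannot be told apart.

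The untreated arrays lay farther apart than the arrays of any other group. They differed by 2-fold or more in 1450 genes (7.33%), against 18 genes (0.091%) for the pair of 1 µM arrays, 3.84% for MCF-10F and 0.142% for the 10 µM ATRA arrays. The 1 µM arrays differed by 2-fold from untreated replicate 1 in 13.2% and 13.8% of genes, and from untreated replicate 2 in 7.3% and 7.9%. Among the 1450 genes, replicate 1 was the lower array in 1133 and the higher in 317. The ATRA mean was nearer to replicate 2 in 1130 of these genes (77.9%), lay between the untreated arrays in 655, above both in 586 and below both in 209. Over all 19775 genes it was nearer to replicate 2 in 12917 (65.3%), between in 6369, above both in 5624 and below both in 7782. Of the 1450 genes, 15 passed the test below, beside 375 of all 19775 genes. These genes were picked for a wide gap that itself enters the spread, which makes passing harder for them. In the genes farthest apart the difference depended on the untreated array. HSPA6, a heat-inducible chaperone, read 9.81 and 5.16 without ATRA and 5.51 and 5.76 with it, which is 4.17 under replicate 1 and 0.47 over replicate 2. RNF152, a ubiquitin ligase of the lysosome, read 8.02 and 3.94 against 3.41 and 3.47. GEN1, a nuclease that resolves Holliday junctions, went the other way, with 4.72 and 8.21 against 8.72 and 9.03, and the zinc finger gene ZNF302 read 4.84 and 8.33 against 7.92 and 8.00. The noncoding transcripts MIR570HG (4.52 and 7.97 against 6.63 and 6.85) and ZNF407-AS1 (5.09 and 8.50 against 8.41 and 8.50) completed the 6 genes farthest apart between the untreated arrays. None of the 6 passed the test, with adjusted p from 0.293 to 0.847.

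ATRA at 1 µM went with a loss of several genes of stratified epithelium, led by CLCA2, MIR205HG, DSC3 and KRT16, and with a gain of KRT13, KRT80, the growth factor gene BTC, the steroid sulfatase gene STS and a set of interferon-stimulated genes. In all, 375 of 19775 genes passed the test (1.9%), of which 192 rose (0.971%) and 183 fell (0.925%). A fold of 2 together with an unadjusted p under 0.05 took 1561 genes (7.89%), 963 higher and 598 lower. Of the 375, 128 changed by at least 4-fold, 64 in each direction, and 45 by at least 8-fold. In all 375 the 2 groups of arrays did not overlap, as was true of 54.5% of all genes. In 25 of the 375, 1 group's mean signal was under 16, and the size of those folds is uncertain. The median difference over all genes was -0.06, or -0.11 against untreated replicate 1 and -0.0046 against replicate 2.

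Against each untreated array alone, 347 of the 375 genes lay at least 2-fold away in the same direction (1.75% of all genes), 182 higher and 165 lower. Of the other 28, 15 were 2-fold from replicate 1 only, 5 from replicate 2 only and 8 from neither. With no condition on p, 948 genes were at least 2-fold from each untreated array, 531 higher and 417 lower, and 3 genes were 2-fold above 1 array and 2-fold below the other. The adjusted p was a stricter condition than the fold. With untreated replicate 1 left out, 185 of the 375 still passed (99 rose, 86 fell), and all 375 passed with replicate 2 left out, where 2983 genes passed in total. Each of these fits kept only 1 untreated array, so the gap between the untreated arrays no longer entered the spread. Keeping a call there is therefore not independent support for it. With either 1 µM array left out, limma called 0 genes (2145 and 2018 at an unadjusted p under 0.05, smallest adjusted p 0.23 and 0.287), so every call below rests on having both ATRA arrays.

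Probe sets of the same gene did not always move alike. Of the 375 genes, 188 had another bright single-gene probe set (a signal of at least 64 on 1 of the 4 arrays). In 80 of the 188 such a probe set showed under 0.5 of the log2 difference of the brightest one, and in 20 it had the opposite sign. Among genes described below these were ANO1, APOL6, CMBL, COL7A1, CYP26B1, DCLK1, FLCN, FRMD3, HPGD, IFIT3, MYLIP, NRP2, PAPPA, POFUT2, SPRR1A, STS, TNFAIP2 and ZFP36L2. FRMD3 still passed at such a probe set (2.34 ± 0.32, adjusted p = 0.0399), as did NRP2 (1.91 ± 0.20, adjusted p = 0.0247).

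**Figure D1:**
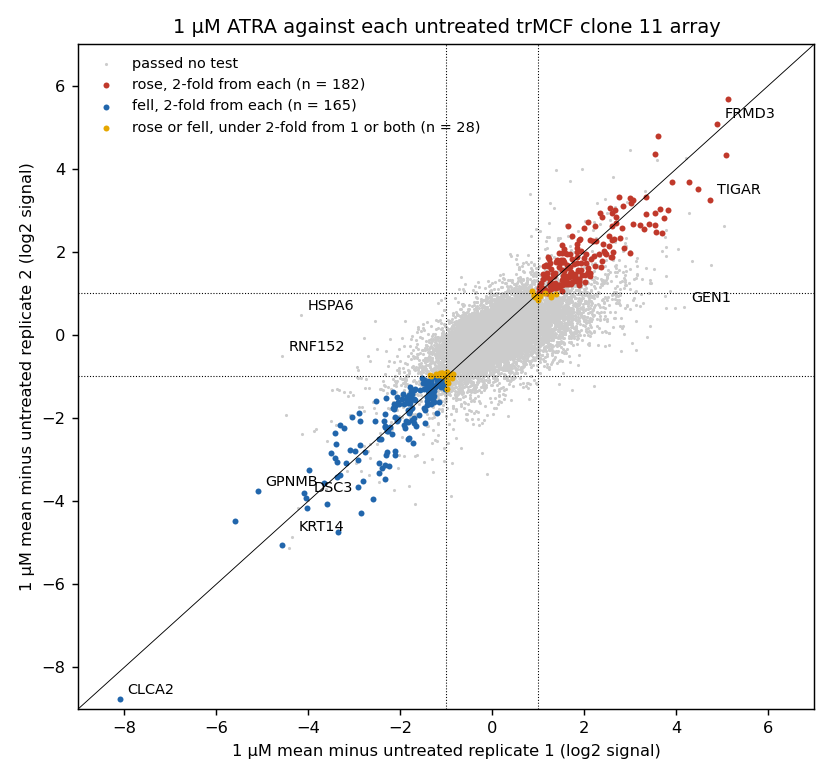
Each point is a gene, placed by the log2 difference of the 1 µM ATRA mean from untreated replicate 1 on the x axis and from untreated replicate 2 on the y axis, with dotted lines at 2-fold and a diagonal where both differences are equal. Of the 375 genes that passed, 347 lie beyond the lines on both axes (182 red, 165 blue) and 28 do not (yellow), while HSPA6, RNF152 and GEN1 lie far out on the x axis and near 0 on the y axis.

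The 6 of these 28 genes with the smallest p lay close to 2-fold from both untreated arrays. TMEM9B, a lysosomal membrane protein gene, rose by 0.99 ± 0.14 (9.02 and 9.11 against 10.04 and 10.06, adjusted p = 0.0418), and ZNHIT2, a zinc finger gene, rose by 1.07 ± 0.15. SYTL1, which links Rab27 to vesicles, fell by 1.16 ± 0.17, the myotubularin-related MTMR11 by 1.15 ± 0.16, the ADP-ribosyltransferase PARP16 by 1.09 ± 0.16 and the O-fucosyltransferase POFUT2 by 1.02 ± 0.15. In each of these 6 genes the nearer untreated array stood between 0.93 and 1.0 from the ATRA mean.

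The largest falls included CLCA2, a regulator of chloride channels made by basal and stratified epithelial cells. CLCA2 read 11.39 and 12.05 without ATRA and 3.18 and 3.40 with it, and fell by 8.43 ± 0.57 (adjusted p = 0.016). The ATRA values lie under a signal of 16, so the fold of 346 depends on a near-background signal. DSC3, a desmosomal cadherin of basal and squamous layers, read 10.90 and 10.77 against 7.12 and 6.58 and fell by 3.98 ± 0.24 (adjusted p = 0.0129). KRT16, a keratin of activated and stratified epithelia, read 12.09 and 12 against 8.38 and 8.49 and fell by 3.61 ± 0.40 (adjusted p = 0.0281; 0.0567 without untreated replicate 1). In these 3 genes the untreated arrays were close together and far above the ATRA arrays. The remaining falls covered varied functions. CLEC2B, a C-type lectin, fell by 5.03 ± 0.60 (9.86 and 8.75 against 4.26 and 4.28; adjusted p = 0.0307, or 0.0577 without untreated replicate 1). TPRG1 fell by 4.81 ± 0.39, and GPNMB, a melanosome and lysosome glycoprotein gene, by 4.42 ± 0.42, with both at ATRA levels under a signal of 16. BLNK, an adaptor of B-cell receptor signalling, fell by 4.09 ± 0.35, and VAV3 by 4.06 ± 0.50. RAB38, a small GTPase of melanosome transport, fell by 3.83 ± 0.25, N4BP2L1 by 3.62 ± 0.32, SCRG1 by 3.57 ± 0.45 and CPE, which trims peptide hormone precursors, by 3.40 ± 0.27.

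MIR205HG, the host transcript of miR-205, was the gene with the smallest p of all and is described here for that reason, after its values were seen. The microRNA is known from basal and stratified epithelia. MIR205HG read 11.77 and 11.48 without ATRA and 7.67 and 7.67 with it, and fell by 3.95 ± 0.17 (adjusted p = 0.0123; 0.0206 without untreated replicate 1). A separate probe set named MIR205 read 10.41 and 11.21 against 8.14 and 7.88 and fell by 2.81 ± 0.28 (adjusted p = 0.0234). MIR200CHG, the host transcript of miR-200c, fell by 1.96 ± 0.31 (9.69 and 9.29 against 7.58 and 7.47, adjusted p = 0.0495; 0.092 without untreated replicate 1). The arrays measured these host transcripts, and the mature microRNAs were not measured. The mature miR-205-5p that the MIR205HG locus encodes is given from RefSeq with its seed, bases 2 to 8, in capitals (GRCh38.p14, chr1:209432166-209432187, plus strand).
hsa-miR-205-5p: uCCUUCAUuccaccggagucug

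The largest rise was in FRMD3, a gene of the band 4.1 protein family, which read 3.93 and 3.74 without ATRA and 8.77 and 8.87 with it and rose by 4.98 ± 0.30 (adjusted p = 0.0129). STS, the sulfatase that frees estrone and other steroids from their sulfates, read 3.39 and 4.15 against 8.50 and 8.44 and rose by 4.70 ± 0.43 (adjusted p = 0.019). ANO1, a calcium-activated chloride channel gene, read 4.74 and 3.55 against 8.31 and 8.37 and rose by 4.20 ± 0.37 (adjusted p = 0.018), although another ANO1 probe set read 5.95 and 5.69 against 6.14 and 5.84 (0.17, adjusted p = 0.676). All 3 genes had untreated means under a signal of 16 or near it and were well measured in the MCF-10F line, at means of 8.29, 9.41 and 7.92. TIGAR, a bisphosphatase that lowers glycolytic flux, rose by 3.99 ± 0.46 (3.62 and 5.10 against 8.48 and 8.23). NRP2, a co-receptor for semaphorins and VEGF, rose by 3.97 ± 0.41, and the surface antigen gene PSCA by 3.95 ± 0.41. PAPPA, the protease that cuts IGF-binding protein 4, rose by 3.79 ± 0.25 (4.94 and 5.15 against 8.66 and 9.0, adjusted p = 0.0157). BTC, the EGF-receptor ligand betacellulin, rose by 3.42 ± 0.27 (5.09 and 5.89 against 8.94 and 8.88, adjusted p = 0.0169). TLR3, the sensor of double-stranded RNA, rose by 3.33 ± 0.25, and SPAG1, a gene of dynein arm assembly, by 3.27 ± 0.37. GPAT3, an acyltransferase of triglyceride synthesis, rose by 3.98 ± 0.61 and the kinase gene DCLK1 by 3.34 ± 0.43, and both lost the call without untreated replicate 1 (adjusted p = 0.0904 and 0.0673).

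**Figure D2:**
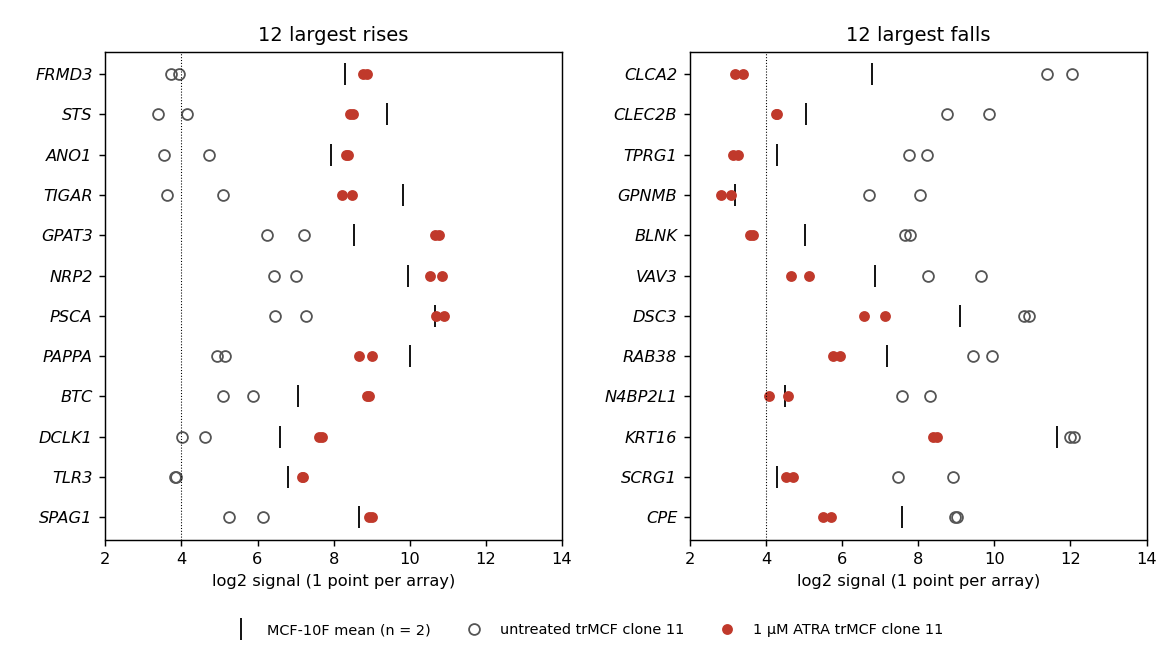
Log2 signal on each array (1 point per array) of the 12 genes with the largest rises and the 12 with the largest falls, with untreated and 1 µM ATRA arrays as open and filled circles, the MCF-10F mean as a bar and a dotted line at a signal of 16. Long noncoding and uncharacterized genes, such as MIR205HG with its fall of 3.95, were passed over. Genes were drawn only where the untreated and ATRA points do not overlap. In most of them the 2 ATRA points lie closer together than the 2 untreated points.

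Of 32 measured genes listed as retinoid targets, 3 rose and none fell, 9.38% of the list against 1.9% of all genes. CYP26B1, which clears retinoic acid, read 7.72 and 8.09 without ATRA and 10.66 and 10.89 with it, and rose by 2.86 ± 0.20 (adjusted p = 0.016); a dimmer probe set of the same gene differed by -0.03. TNFAIP2 rose by 2.80 ± 0.30 (8.66 and 8.16 against 11.29 and 11.12, adjusted p = 0.026). The nuclear receptor gene NR2F1 rose by 2.48 ± 0.33 (adjusted p = 0.0393; 0.0568 without untreated replicate 1). Other genes widely used as signs of retinoid exposure did not pass. CYP26A1 read 4.93 and 4.49 against 5.52 and 5.33 (difference 0.72 ± 0.19, adjusted p = 0.132) and stayed near a low signal. RARB read 5.44 and 4.72 against 5.14 and 5.28 (0.13 ± 0.25, adjusted p = 0.835, 95% interval half-width 0.62), and its groups overlapped. DHRS3, which reduces retinal to retinol, read 10.44 and 9.45 against 11.10 and 10.95 (1.08 ± 0.47, adjusted p = 0.293), and TGM2, tissue transglutaminase, differed by 2.38 (adjusted p = 0.0623). LAMB1, the laminin β1 chain gene, differed by -0.87 ± 0.14 (adjusted p = 0.0521). The median of the 32 genes was 0.34, or 0.15 and 0.51 against untreated replicates 1 and 2, where all genes had -0.06.

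The 24 measured genes of retinoid metabolism had 3 rises and no fall (12.5%, against 1.9% of all genes). Beside CYP26B1, ALDH1A3, which makes retinoic acid from retinal and is also counted among luminal and aryl hydrocarbon receptor genes, rose by 2.39 ± 0.26 (10.67 and 10.03 against 12.94 and 12.55, adjusted p = 0.0259). DHRS9, a retinol dehydrogenase, rose by 2.23 ± 0.35 with an adjusted p of 0.0497, and of 0.0968 without untreated replicate 1. RDH10, the dehydrogenase that turns retinol into retinal, differed by 1.31 ± 0.24 (adjusted p = 0.0623).

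Genes of basal and squamous cells changed in both directions. Of 30 measured, 6 fell and 3 rose, which is 30% against 1.9% of all genes, and the list median was -0.30. Beside CLCA2, DSC3 and KRT16, the falls were in the cornified envelope genes SPRR1B (10.92 and 10.46 against 7.66 and 7.32, by 3.20 ± 0.43) and SPRR1A (by 2.22 ± 0.30) and in the protocadherin gene FAT2 (by 2.46 ± 0.26). The SPRR1 calls were lost without untreated replicate 1, at adjusted p = 0.0746 and 0.0727, these near-identical paralogs may share signal, and a dimmer SPRR1A probe set differed by 0.14 (adjusted p = 0.917). The rises were all in keratin genes, KRT13, KRT80 and KRT4. KRT13, a keratin of internal, non-cornifying stratified epithelia, read 5.32 and 5.17 against 8.06 and 7.94 and rose by 2.76 ± 0.20 (adjusted p = 0.016). KRT80 read 7.63 and 7.23 against 9.86 and 9.86 and rose by 2.43 ± 0.18, and KRT4, the usual partner of KRT13, rose by 1.57 ± 0.18 (5.10 and 4.74 against 6.57 and 6.41). KRT14, the keratin of basal cells, had a large difference that did not pass, with 11.66 and 12.15 against 7.73 and 6.86 (-4.61 ± 0.87, adjusted p = 0.0663). Its basal partner KRT5 read 12.56 and 12.84 against 12.10 and 12.04 (adjusted p = 0.566).

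Of 28 measured junction genes, 2 rose, the claudin gene CLDN23 by 1.65 ± 0.20 (4.36 and 4.05 against 5.93 and 5.77) and MARVELD2, which encodes tricellulin, by 0.93 ± 0.14 (9.47 and 9.43 against 10.40 and 10.36; adjusted p = 0.0446, or 0.0613 without untreated replicate 1), which is 7.14% against 0.971% of all genes that rose. The desmosomal cadherin gene DSC3, which fell, was counted among the basal and squamous genes and not in this list. The list median was -0.32, where all genes had -0.06. Without overlap, 16 members lay below both untreated arrays and 4 above both, beside 6000 and 4772 of all 19775 genes. Those below included the connexin gene GJA1 (-3.00, adjusted p = 0.119) and the claudin gene CLDN1 (-1.5, adjusted p = 0.204). The desmosomal plaque genes DSP and JUP differed by -1.01 ± 0.18 and -1.26 ± 0.22 and did not pass (adjusted p = 0.057 and 0.058). Of 30 luminal mammary genes only ALDH1A3 passed (3.33%, against 1.9% of all genes). FOXA1, a luminal transcription factor, differed by 1.47 ± 0.30 (adjusted p = 0.0779), the milk protein gene LTF by -1.74 ± 0.43 (adjusted p = 0.109) and the simple-epithelial keratin KRT7 by 1.09 ± 0.41 (adjusted p = 0.24).

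**Figure D3:**
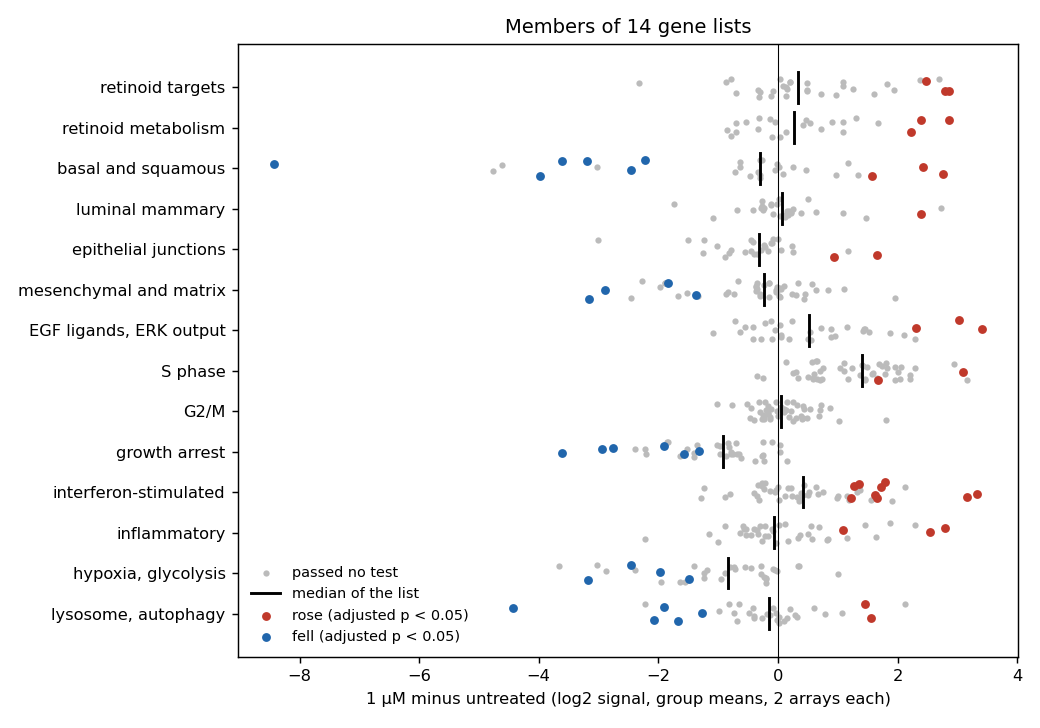
Log2 difference of the 1 µM ATRA mean from the untreated mean for each measured gene of the lists drawn (1 point per gene), with genes that rose in red, those that fell in blue and the list median as a bar. In the S-phase list 47 of 49 genes lie above 0 and in the growth arrest list 3 of 38 do, while most points of both lists did not pass the test.

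Genes of DNA replication lay higher with ATRA as a group, although few passed the test. Of 49 measured S-phase genes, 47 were higher, as were 8249 of all 19775 genes, and the list median was 1.41. The calls were 2 (4.08%, against 0.971% of all genes that rose). CCNE1, the cyclin that drives entry into S phase, read 7.87 and 7.62 against 9.39 and 9.43 and rose by 1.66 ± 0.20 (adjusted p = 0.0324). UHRF1, which keeps DNA methylation through replication, read 7.84 and 8.74 against 11.39 and 11.38 and rose by 3.09 ± 0.45 (adjusted p = 0.0446; 0.0755 without untreated replicate 1). The helicase subunit MCM3 differed by 2.21 ± 0.36 (adjusted p = 0.0512), the activator E2F2 by 1.23 ± 0.20 (adjusted p = 0.0511) and MCM10 by 3.15 (adjusted p = 0.0532). The list median was 1.62 against untreated replicate 1 and 0.99 against replicate 2, since replicate 1 itself lay 0.80 under replicate 2 at the median. Mitotic genes had a median near 0. None of 48 G2/M genes passed, 25 of them were higher, and their median was 0.37 against replicate 1 and -0.24 against replicate 2. The kinase gene NEK2 differed by -1.02 ± 0.19 (adjusted p = 0.0614) and PLK1 by -0.52 ± 0.23, while SPC25 of the kinetochore stood at 1.81 ± 0.56 and the motor gene KIF11 at 1.02 ± 0.42, with SPC25 at 6.4 and 8.15 on the untreated arrays.

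EGF ligands and outputs of ERK signalling had 3 rises among 34 measured genes (8.82%, against 0.971% of all genes) and a median of 0.52. Beside BTC, CCND1, the cyclin that responds to growth factors, read 7.80 and 7.24 against 10.63 and 10.47 and rose by 3.03 ± 0.46 (adjusted p = 0.0471). FOSL1, an AP-1 subunit, read 6.12 and 6.77 against 9.09 and 8.41 and rose by 2.31 ± 0.34 (adjusted p = 0.0453). Without untreated replicate 1 only BTC kept its call, with CCND1 at 0.0686 and FOSL1 at 0.0781. The ligand gene TGFA differed by 0.88 ± 0.15 (adjusted p = 0.0568), and EREG, which encodes epiregulin, by 2.11 ± 0.46 (adjusted p = 0.0872).

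Of 38 measured genes tied to growth arrest and FOXO factors, 6 fell (15.8%, against 0.925% of all genes) and none rose. At any p 3 were higher, and the median was -0.92 (-1.03 and -0.82 against each untreated array). TXNIP, an inhibitor of thioredoxin and of glucose uptake, read 13.58 and 13.26 against 10.67 and 10.30 and fell by 2.94 ± 0.26 (adjusted p = 0.0181). TSC22D3, the glucocorticoid-induced leucine zipper gene, read 13.15 and 12.93 against 10.38 and 10.18 and fell by 2.76 ± 0.24 (adjusted p = 0.018). The translation inhibitor PDCD4 fell by 1.32 ± 0.14, the RNA-decay factor ZFP36L2 by 1.57 ± 0.20, KLF11, a repressor, by 1.90 ± 0.28 and N4BP2L1 as above. All but KLF11 kept the call without untreated replicate 1. Of 25 p53 target genes, 8% passed, against 1.9% of all genes. TIGAR rose and CMBL, a hydrolase gene, fell by 1.25 ± 0.14 (11.77 and 11.76 against 10.50 and 10.53). Another bright CMBL probe set differed by -0.16 (10.55 and 10.93 against 10.51 and 10.64, adjusted p = 0.701). The other p53 targets TP53I3 (1.48 ± 0.27, adjusted p = 0.0634) and SESN1 (-0.83 ± 0.20, adjusted p = 0.102) did not pass.

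Interferon-stimulated genes gave 9 rises and no fall among 51 measured, 17.6% of the list, with a median of 0.42, against 1.9% called and 0.971% risen over all genes. Members also lay the other way without passing, such as ISG20 (-1.24, adjusted p = 0.0659), GBP2 (-1.29, adjusted p = 0.458) and IFIT1 (-0.88, adjusted p = 0.474), and 15 of the 51 were not higher. Interferons induce these genes through STAT and IRF factors that bind the interferon-stimulated response element. IFIT3, an antiviral RNA-binding protein gene, read 4.91 and 4.72 without ATRA and 8.28 and 7.67 with it, and rose by 3.16 ± 0.23 (adjusted p = 0.016). A second IFIT3 probe set of similar brightness read 6.84 and 6.37 against 7.05 and 6.81, a difference of 0.32 (adjusted p = 0.461), so the rise was seen by 1 of these probe sets. TLR3 read 3.83 and 3.86 against 7.19 and 7.16. Its untreated values lie under a signal of 16, and its ATRA values near the MCF-10F mean of 6.80. IFI44 rose by 1.79 ± 0.21, IFIT5 by 1.72 ± 0.23 (7.55 and 8.12 against 9.71 and 9.40), the apolipoprotein L gene APOL6 by 1.65 ± 0.19, IFI35 by 1.62 ± 0.24, the nucleotide hydrolase SAMHD1 by 1.36 ± 0.18, the ADP-ribosyltransferase PARP12 by 1.28 ± 0.14 and the STAT partner NMI by 1.22 ± 0.17. The calls of IFI35 and SAMHD1 were lost without untreated replicate 1 (adjusted p = 0.0589 and 0.0584), and the other 7 were kept.

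Promoters are shown for 3 of the rising genes because the element named above is known in this gene class. The letters GAAA, any 2 bases and GAAA again, a core of the interferon-stimulated response element, were searched on both strands of RefSeq windows from 250 bases before to 50 after the start, a search added after the values were seen. They were found in 6 of the 8 rising genes with a window (75%), in 18 of 32 members that did not pass (56.2%) and in 453 of 15384 windows of all genes (2.94%). A match is a description of letters and not a shown binding site. The windows of IFIT3, IFIT5 and TLR3 on GRCh38.p14 hold 2, 3 and 1 matches, in capitals, all lying on the opposite strand and so read here as TTTC, 2 bases and TTTC. They lie at chr10:89327747-89328046, chr10:89414318-89414617 and chr4:186068906-186069205, each on the plus strand.
IFIT3: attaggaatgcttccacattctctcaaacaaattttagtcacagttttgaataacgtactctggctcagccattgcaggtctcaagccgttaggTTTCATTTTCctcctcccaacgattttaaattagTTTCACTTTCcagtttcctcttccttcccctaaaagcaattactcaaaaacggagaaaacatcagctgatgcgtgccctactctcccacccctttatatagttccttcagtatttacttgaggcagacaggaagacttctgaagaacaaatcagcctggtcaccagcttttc
IFIT5: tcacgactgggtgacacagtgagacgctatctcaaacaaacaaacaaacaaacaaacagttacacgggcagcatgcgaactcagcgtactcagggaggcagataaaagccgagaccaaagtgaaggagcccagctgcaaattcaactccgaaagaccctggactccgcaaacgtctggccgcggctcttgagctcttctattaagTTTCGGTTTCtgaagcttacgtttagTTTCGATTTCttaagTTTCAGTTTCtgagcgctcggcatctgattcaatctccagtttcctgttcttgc
TLR3: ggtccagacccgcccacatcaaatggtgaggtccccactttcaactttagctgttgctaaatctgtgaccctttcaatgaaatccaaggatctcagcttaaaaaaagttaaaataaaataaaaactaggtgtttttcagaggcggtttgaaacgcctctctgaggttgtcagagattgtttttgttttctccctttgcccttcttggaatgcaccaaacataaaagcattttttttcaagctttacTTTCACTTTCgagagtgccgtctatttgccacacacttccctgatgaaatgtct
A search for the letters of retinoid receptor elements, direct repeats of AGGTCA or AGTTCA spaced by 5, 2 or 1 bases, found 11 matches in 15384 windows (0.0715%), with 0 of 147 windows of genes that rose and 0 of 153 of genes that fell, which says only that these exact letters are not in these short windows.

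Of 40 measured inflammatory genes, 3 rose (7.5%, against 0.971% of all genes) and none fell. TLR4, the receptor for bacterial lipopolysaccharide, read 3.11 and 3.57 against 5.83 and 5.94 and rose by 2.55 ± 0.25 (adjusted p = 0.0215). PTGES, which makes prostaglandin E2, rose by 1.09 ± 0.15 (adjusted p = 0.0392; 0.0581 without untreated replicate 1), and TNFAIP2 rose as given above. The cytokine genes IL1B (1.87 ± 0.43, adjusted p = 0.0952) and IL18 (-1.0 ± 0.19, adjusted p = 0.0697) did not pass.

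Genes of hypoxia and glycolysis had 4 falls among 34 measured (11.8%, against 0.925% of all genes) and a median of -0.84, with 3 members higher. HILPDA, a lipid droplet protein gene, read 11.53 and 10.85 against 7.80 and 8.24 and fell by 3.17 ± 0.36 (adjusted p = 0.0281). ALDOC, an aldolase isoform, read 9.52 and 9.59 against 7.30 and 6.89 and fell by 2.46 ± 0.25 (adjusted p = 0.0234). ANKRD37 fell by 1.98 ± 0.24 and PFKFB3, which makes the activator of phosphofructokinase, by 1.5 ± 0.23. Only ALDOC kept its call without untreated replicate 1, with the others between 0.0513 and 0.0608. The abundant enzymes of the pathway did not pass, as GAPDH differed by -0.19 (adjusted p = 0.506), ENO1 by -0.08 and LDHA by -0.20.

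Among 47 matrix and mesenchymal genes, 4 fell (8.51%, against 0.925% of all genes) and none rose, with a median of -0.23. LOX, which crosslinks collagen and elastin, read 12.37 and 13.09 against 9.68 and 9.47 and fell by 3.16 ± 0.46 (adjusted p = 0.0445). Its relative LOXL2 read 10.97 and 10.61 against 8.97 and 8.93 and fell by 1.84 ± 0.17 (adjusted p = 0.0201). The matricellular gene THBS2 fell by 2.90 ± 0.22 (7.65 and 7.45 against 4.82 and 4.48), and COL7A1, the collagen of anchoring fibrils, by 1.38 ± 0.17. LOX and COL7A1 lost their calls without untreated replicate 1, at 0.0589 and 0.056. The summed fibroblast markers, given above, lay in the same direction, with COL1A1 at 7.98 and 8.95 against 6.81 and 6.78 (adjusted p = 0.147) and DCN between 6.02 and 6.51 on all 4 arrays.

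Genes of lysosomes and autophagy gave 5 falls and 2 rises among 34, 20.6% of the list against 1.9% of all genes, with a median of -0.16. FLCN, the folliculin tumour suppressor gene, read 7.98 and 7.99 against 5.94 and 5.87 and fell by 2.08 ± 0.15 (adjusted p = 0.016), while FNIP2, which encodes a folliculin partner, rose by 1.55 ± 0.22 (7.02 and 7.55 against 8.77 and 8.91, adjusted p = 0.0417). ATG14 and the kinase gene ULK1, both needed to start autophagosomes, fell by 1.68 ± 0.23 and 1.28 ± 0.17, the protease gene CTSK fell by 1.91 ± 0.28 and GPNMB as above, and the proton pump subunit gene ATP6V0A2 rose by 1.45 ± 0.20. FLCN and GPNMB kept the call without untreated replicate 1, and no other member of this list did.

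The remaining lists had few calls each, although most of their shares lay above the 1.9% of all genes. The shares were 6.06% in unfolded protein stress and 3.23% in cholesterol and fatty acid synthesis. They were 6.25% in the estrogen and steroid list, 7.14% in aryl hydrocarbon receptor targets and 0% in circadian genes. In unfolded protein stress, 2 of 33 fell, the stress transcription factor DDIT3 by 1.26 ± 0.15 (9.24 and 9.22 against 8.02 and 7.92, adjusted p = 0.029) and the chaperone partner DNAJB9 by 1.17 ± 0.17 (adjusted p = 0.045). HERPUD1 (-1.13 ± 0.21) and CRELD2 (1.22 ± 0.23) lay in opposite directions and did not pass. In cholesterol and fatty acid synthesis, 1 of 31 fell, MYLIP, the ubiquitin ligase of the LDL receptor, by 2.96 ± 0.43 (adjusted p = 0.0445; 0.08 without untreated replicate 1). INSIG1 (-1.25 ± 0.22), ELOVL6 (1.47 ± 0.28) and the sterol exporter ABCG1 (-1.54 ± 0.40) did not pass at their brightest probe sets. Dimmer ELOVL6 probe sets did pass (2.29, adjusted p = 0.0264, and 1.71, adjusted p = 0.0399). So did 1 dimmer ABCG1 probe set (-1.79, adjusted p = 0.0311), while the other ABCG1 and INSIG1 probe sets did not. In the estrogen and steroid list STS and PAPPA rose and none of the other 30 passed, with IRS1 at -1.39 ± 0.26 and SRD5A1 at -1.14 ± 0.23. Of 14 aryl hydrocarbon receptor targets, ALDH1A3 alone rose, and CYP1B1 differed by -1.14 ± 0.25 (adjusted p = 0.0862). None of 16 circadian genes passed at the brightest probe set. NR1D2 stood at -1.52 ± 0.32, CIART at -0.75 ± 0.16, BHLHE40 at -0.79 ± 0.20 and NFIL3 at -2.30 ± 0.56, where the untreated arrays of NFIL3 read 12.12 and 10.25. A dimmer NR1D2 probe set did pass (-3.12 ± 0.40, adjusted p = 0.0363).

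**Figure D4:**
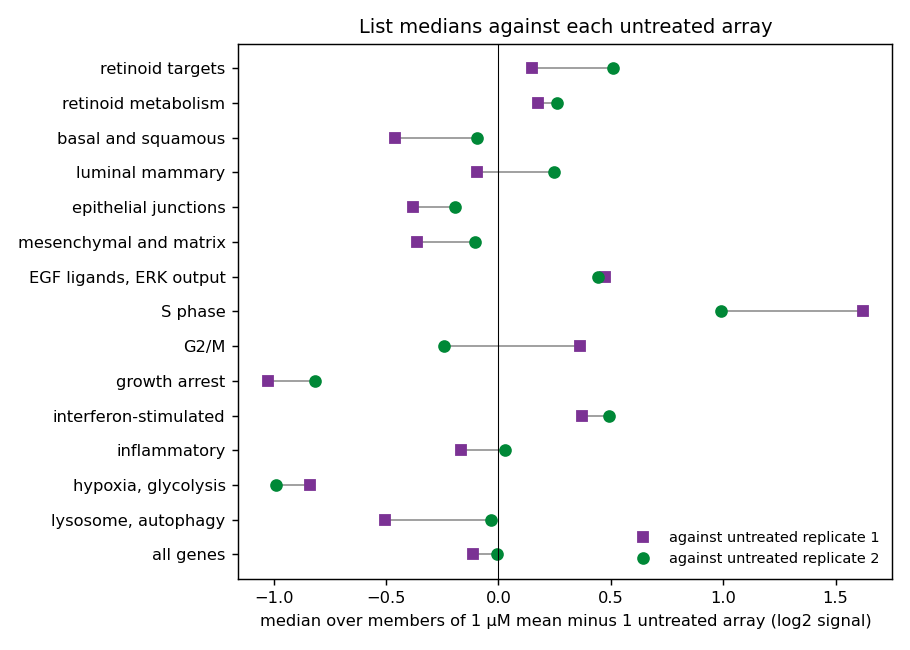
Median log2 difference at 1 µM ATRA over the members of each gene list drawn, against untreated replicate 1 alone (squares) and replicate 2 alone (circles), with all genes in the lowest row. S-phase, growth arrest and hypoxia medians keep their sign against each array (1.62 and 0.99, -1.03 and -0.82, -0.84 and -0.99), and the G2/M median changes sign (0.37 and -0.24).

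The 10 µM ATRA arrays were compared with the same untreated arrays, so their values are set beside those at 1 µM with no test. CLCA2 read 3.45 and 3.55 at 10 µM against 3.18 and 3.40 at 1 µM, and CYP26B1 10.43 and 10.88 against 10.66 and 10.89. DSC3 read 5.6 and 5.56 against 7.12 and 6.58, and MIR205HG 6.64 and 6.99 against 7.67 and 7.67. KRT14 read 5.40 and 5.09 at 10 µM against 7.73 and 6.86 at 1 µM. IFIT3 (8.14 and 7.71 against 8.28 and 7.67) and CCND1 (10.55 and 10.40 against 10.63 and 10.47) overlapped between the doses.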

How the data were processed

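Cells of trMCF clone 11, untreated or kept in 1 µM ATRA, were profiled on Affymetrix human arrays with 2 arrays per group. The authors deposited signal intensities on a linear scale, already scaled between arrays. MAS 5.0 global scaling and Iterative Plier both appear in the methods, without a statement of which one gave the deposited intensities. No untransformed scan data were used, so background handling could not be varied.

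Intensities were converted to log2 with no further scaling. The fit of limma 3.58.1 (R 4.3.3) held 6 arrays in 3 groups, MCF-10F, untreated clone and 1 µM ATRA, with 1 mean per group, no covariate, 3 residual and 2.91 prior degrees of freedom, and Benjamini-Hochberg adjustment over 54613 probe sets (62 controls left out). Gene names came from the platform annotation: 41091 probe sets name 1 gene, 1801 several and 11721 none. Each gene was taken at its brightest single-gene probe set. The fit was also run on simulated data with the same spread in every group, so that run does not test the unequal spread of the groups here. Lists, 20 in number, were described by counts and medians.

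Genes named in the text are the 12 largest rises and falls (called, arrays not overlapping, 2-fold from each untreated array, signal of at least 64, named genes only), up to 4 members per list with the smallest p, 6 called genes not 2-fold from each untreated array, 6 genes farthest apart between the untreated arrays, and 4 retinoid targets (CYP26A1, CYP26B1, RARB, DHRS3). Genes named outside this rule were chosen after their values were seen; these are the other called members of lists, GJA1, CLDN1, ISG20, GBP2, IFIT1, KRT14, KRT5, TGM2, MCM10, GAPDH, ENO1, LDHA, the cell type markers, the microRNA hosts and the genes of the closing section. The comparison, the lists and the genes were chosen with earlier results of these data known. Alternatives were all 8 arrays, 4 arrays, quantile normalization, filters on dim or shared-target probe sets, a floor of 16, a trended prior, array weights, gene means, a replicate block and leaving out each array. Python 3.11.15, pandas 2.3.3, numpy 2.4.6 and matplotlib 3.10.9 were used for counts, promoter searches and plots.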

Additional observations from a re-analysis of the deposited data

How the results depend on the processing

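Counts depended strongly on which arrays set the spread. Leaving out 1 array at a time moved the 375 calls between 0 and 2983, the rises between 0 and 1965, the falls between 0 and 1018 and the genes 2-fold from each untreated array between 0 and 2079. The lowest values came without either 1 µM array and the highest without untreated replicate 2. Without untreated replicate 1 there were 314 calls, 185 of them shared with the 375. Where a group is left with 1 array, that array is assumed to vary like the others. The fit on all 8 arrays called 1437 genes (795 rose, 642 fell, 745 of them 2-fold from each untreated array), all 375 included. Setting signals under 16 to 16 gave 48 calls (26 rose and 22 fell, with 26 held against each array), 30 of them among the 375. The prior degrees of freedom were 0.443 in that fit, against 2.91 in the main fit. Averaging all probe sets of a gene gave 600 calls (332 rose), leaving out probe sets with shared-target suffixes gave 118 falls, and a fold of 2 with an unadjusted p gave 1561 (963 and 598). The cause of these differences was not tested. The 4 arrays alone, quantile normalization, a filter on dim probe sets, a trended prior and array weights kept every total within 1.5 times of 375, from 350 to 487. The genes called changed more than these totals. The 4 arrays alone called 429 genes, of which 256 were among the 375. Shared calls numbered 321 with quantile normalization, 362 with the dim filter, 295 with the trended prior and 345 with array weights. Of the 66 called genes that the rule on size and on the smallest p in each list named, none reversed under these alternatives. Of these 66, 47 kept the call with the replicate block, 42 without untreated replicate 1 and 5 with the floor.

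The labels do not say that a replicate number marks a shared culture or day. Deviations of equally numbered arrays from their group means correlated over probe sets at 0.085 between untreated and 1 µM arrays, 0.15 between MCF-10F and untreated, -0.056 between MCF-10F and 1 µM, 0.117 between untreated and 10 µM, 0.03 between MCF-10F and 10 µM, and 0.351 between both doses. With 2 arrays per group this does not settle pairing. With the replicate block, 191 genes passed (92 rose, 99 fell, all 191 at least 2-fold from each untreated array), 167 of them among the 375.

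List medians near 0 changed sign in some settings: cholesterol, steroid, luminal, inflammatory, unfolded protein, aryl hydrocarbon receptor and G2/M genes, the last to -0.24 without untreated replicate 1. With 2 arrays per group and signals near background in 25 called genes, small differences were not detectable and folds of dim genes are uncertain.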

Other observations

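Some related genes that are on none of the lists passed the test and were chosen here after their values were seen. In the family of subunits that bring protein phosphatase 1 to glycogen, PPP1R3C fell by 3.34 ± 0.16 (10.33 and 10.41 without ATRA against 7.05 and 7.02 with it, adjusted p = 0.0123) and PPP1R3B by 1.81 ± 0.24 (9.65 and 9.63 against 7.87 and 7.77, adjusted p = 0.0398; 0.0695 without untreated replicate 1). Of the other measured members PPP1R3D (1.01, adjusted p = 0.297), PPP1R3A (-0.06), PPP1R3E (0.10) and PPP1R3F (-0.36) did not pass. ARRDC4, an arrestin relative of TXNIP that also limits glucose uptake, fell by 2.71 ± 0.32 (9.69 and 10.60 against 7.59 and 7.28, adjusted p = 0.0297). Hyaluronan synthase genes moved in opposite directions, as HAS3 fell by 2.56 ± 0.26 (8.41 and 8.94 against 6.24 and 5.99, adjusted p = 0.0239) and HAS2 rose by 1.33 ± 0.18 (4.56 and 4.80 against 6.10 and 5.93, adjusted p = 0.0399; 0.065 without untreated replicate 1). So did the acyl-CoA synthetase genes ACSL5, which rose by 2.13 ± 0.32 (6.48 and 5.52 against 8.18 and 8.09), and ACSL4, which fell by 1.54 ± 0.24 (10.01 and 10.70 against 8.85 and 8.79).

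A ligand and a receptor of ephrin signalling rose, EFNB2 by 1.94 ± 0.22 (9.61 and 10.18 against 11.91 and 11.76, adjusted p = 0.0281) and EPHA2 by 1.75 ± 0.21 (9.0 and 8.55 against 10.46 and 10.59, adjusted p = 0.0309). STAT4, a transcription factor downstream of interleukin 12, rose by 2.05 ± 0.19 (5.28 and 5.6 against 7.56 and 7.42, adjusted p = 0.0201), the checkpoint ligand gene CD274 by 2.44 ± 0.39 (5.10 and 5.41 against 7.75 and 7.63, adjusted p = 0.0498; 0.0982 without untreated replicate 1) and MLKL, the effector of necroptosis, by 1.62 ± 0.23 (adjusted p = 0.042; 0.0544 without untreated replicate 1). HPGD, which inactivates prostaglandins, rose by 2.60 ± 0.29 (5.39 and 4.93 against 7.44 and 8.10, adjusted p = 0.0281), beside the rise of the prostaglandin synthase gene PTGES. Of histone genes, 3 that passed are given here: H2BC5 fell by 2.73 ± 0.33 (11.03 and 10.04 against 7.92 and 7.69), H2AC6 by 2.74 ± 0.43 and H2BC12 by 1.07 ± 0.17, and only H2BC5 of them kept the call without untreated replicate 1. Histone genes were not counted as a group, and their near-identical sequences may share signal.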
